A study of Mus musculus with 26 samples.

Results

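The genes of sterol and fatty acid synthesis were followed in bulk RNA of the proximal small intestine (SI) of mice in which 1 gene had been deleted in intestinal epithelial cells (IECs). The 42 genes were taken by name from the 55487 genes of the deposited count table: 19 enzymes of sterol synthesis, 12 genes of fatty acid synthesis, elongation and desaturation, 5 regulators of the SREBP pathway and 6 genes of sterol uptake, efflux, transport and esterification. The names were chosen by pathway, but with earlier results of these data known, and all 42 passed the filter on low counts in every comparison. Knockout mice (labelled tg) carried floxed alleles (fl/fl) of that gene and the Villin-creERT2 transgene, and control mice (labelled wt) were littermates with the floxed alleles but without Cre. Both received tamoxifen on 5 consecutive days, were 8 to 12 weeks old, had a C57BL/6N background and ate normal chow. Tissue was taken 3 days (tg.3d and wt.3d, n = 7 mice each) or 7 days (tg.7d and wt.7d, n = 6 mice each) after the last injection. The villin promoter limits the deletion to IECs, whereas the libraries came from whole tissue pieces that also hold lamina propria and muscle. In such bulk samples fewer cells of a type and less RNA per cell cannot be told apart.

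Cells build cholesterol from acetyl-CoA through mevalonate and the isoprenoids, then close squalene to the first sterol, lanosterol, and trim and reshape it step by step. Fatty acids start from the same acetyl-CoA, are extended by fatty acid synthase and the elongases, and receive double bonds from the desaturases. Both routes are classically driven by the SREBP transcription factors, which are held in the endoplasmic reticulum by the INSIG proteins and escorted out by SCAP when sterols are scarce. Enterocytes of the proximal SI also take up dietary cholesterol with NPC1L1, return sterols to the lumen with ABCG5 and ABCG8, and esterify cholesterol for storage and export.

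Total counts ran from 3720168 to 6338016 per library. Levels are given in CPM, counts scaled to a common library total without further scaling, whereas fold changes come from the edgeR quasi-likelihood test with TMM scaling and adjusted p-values cover all genes tested, with a threshold of 0.05. Epithelial markers such as Epcam and Vil1 were found in every group, but at 7 days 6 of the 10 were lower and 1 higher in knockouts (Vil1 by a log2 fold change of -1.57, Epcam of -0.63), with a summed level of 3720 to 4336 CPM against 4726 to 5992 CPM in controls. Of the 8 immune markers tested 5 were lower too, at a summed 2853 to 5468 CPM against 7612 to 15582 CPM. Their part in the 7-day values of the members was not tested. By contrast no epithelial or immune marker was called at 3 days. Transcripts of the stomach were raised in 4 libraries (tg.3d mouse 1, wt.3d mice 5 and 7, wt.7d mouse 2). Member calls that are lost without these libraries are given with both values. Pancreatic acinar and duodenal gland transcripts also varied widely. The summed pancreatic level ran from 57.0 to 41307 CPM in tg.3d and from 102 to 23984 CPM in wt.3d mice. At 7 days it ran from 32.8 to 23697 CPM in tg.7d and from 72.5 to 5317 CPM in wt.7d mice. The summed gland level reached 32915 CPM in tg.3d, 61753 CPM in wt.3d, 82.4 CPM in tg.7d and 27615 CPM in wt.7d mice.

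At 7 days 29 of the 42 genes passed the threshold, 6 higher and 23 lower in knockout mice, which is 69.0% beside 38.5% of the 20259 genes tested (19.7% higher and 18.8% lower). Counts averaged 20 or more for all of the 42 except Idi1, and of all genes that deep 52.9% were called. The sterol synthesis branch was mixed, with 2 of 19 enzymes higher, 8 lower and 9 not called, and a median log2 fold change of -0.32. The fatty acid branch held 2 of 12 genes higher, 7 lower and 3 not called, with a median of -0.51, and all 6 sterol transport genes were lower, with a median of -0.69. The median over all genes tested was -0.02. Each branch except sterol transport had members that moved in opposite directions, and 11 of the 29 calls were changes of at least 2-fold. The CPM of the genotypes did not overlap for 16 members, 5 higher and 11 lower, while 22.6% of all genes tested did not overlap (11.0% higher and 11.6% lower).

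**Figure D1:**
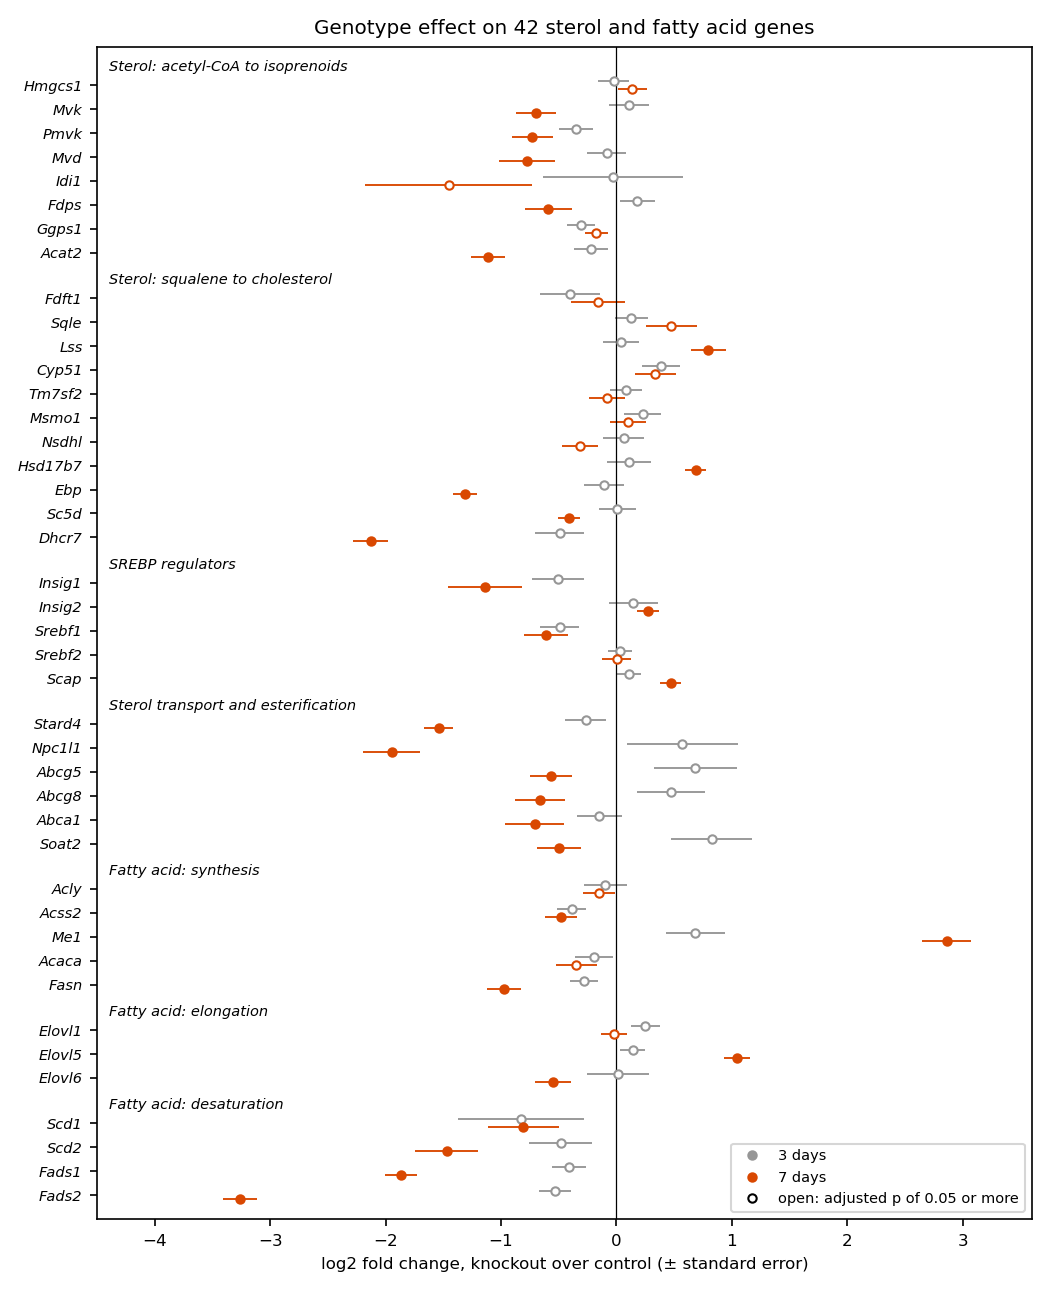
Log2 fold change (knockout over control, x axis, ± standard error) of each of the 42 genes at 3 days (grey) and 7 days (orange), in pathway order, with filled points where the adjusted p was under 0.05. No grey point is filled, and at 7 days the points run from -3.26 for Fads2 to 2.86 for Me1.

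The largest fall was that of the desaturases, and all 4 of them were lower in knockout mice at 7 days, although the call of Scd1 was not secure. Fads2, whose product introduces the first new double bond into the essential fatty acids, lay at 56.8, 63.4 and 78.3 CPM (lowest, median and highest mouse) in controls and at 3.68, 7.40 and 8.15 CPM in knockouts at 7 days. Every knockout mouse was far below every control mouse, and the log2 fold change was -3.26 ± 0.15 (SE), a 9.61-fold decrease (adjusted p = 7.71e-12). Fads1, which acts after elongation in the same route, lay at 17.3, 21.7 and 26.6 CPM in controls and at 4.93, 5.51 and 7.25 CPM in knockouts, again without overlap (log2 fold change -1.87 ± 0.14, adjusted p = 4.92e-09). Fads2 (chr19:10062765-10101746, minus strand, GRCm38) and Fads1 (chr19:10182888-10196877, plus strand) lie 81141 bases apart on the annotation.

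The stearoyl-CoA desaturases, which make monounsaturated fatty acids, changed less evenly. Scd2 lay at 13.3, 20.5 and 49.5 CPM in control and at 7.32, 9.79 and 11.6 CPM in knockout mice at 7 days. The groups did not overlap, although the controls spread widely (log2 fold change -1.47 ± 0.27, adjusted p = 0.000281). Scd1 was low at 7 days, at 4.40, 6.50 and 10.3 CPM in control and 1.33, 4.61 and 5.71 CPM in knockout mice, and its fall was close to the threshold (log2 fold change -0.81 ± 0.31, adjusted p = 0.0481). The call was lost without wt.7d mouse 2, the library with stomach transcripts (log2 fold change -0.75, adjusted p = 0.0750). It was lost when any of tg.7d mice 1, 3 and 6 or wt.7d mice 2, 4 and 6 was left out, with log2 fold changes from -0.64 to -0.83 and adjusted p from 0.0649 to 0.113. The call was also lost when all 26 libraries shared one fit (-0.80, adjusted p = 0.314) and with library totals in place of TMM (adjusted p = 0.0535). At 3 days Scd1 ranged from 6.57 to 63.9 CPM in control and from 3.54 to 37.5 CPM in knockout mice. Scd1 is abundant in fat cells, and adipocyte markers varied too: their summed level ran from 16.5 to 171 CPM in the 3-day controls, from 32.5 to 111 CPM in the 3-day knockouts, from 30.3 to 55.9 CPM in the 7-day controls and from 113 to 179.9 CPM in the 7-day knockouts. At 7 days 4 of the 6 adipocyte markers tested (Cidec, Cfd, Lpl, Car3) were higher in knockouts, of which Cidec, also a lipid droplet gene of enterocytes, held most of the sum, while Adipoq was not called and Plin1, Lep, Retn and Ucp1 were too low to be tested. Their part in the values of Scd1 was not tested.

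Fatty acid synthesis itself was divided. Fasn, the multidomain fatty acid synthase, lay at 32.5, 39.6 and 52.8 CPM in control and at 11.6, 21.8 and 24.7 CPM in knockout mice at 7 days, without overlap (log2 fold change -0.98 ± 0.15, adjusted p = 3.41e-05). Acss2, which makes acetyl-CoA from acetate, fell by less (log2 fold change -0.48 ± 0.14, adjusted p = 0.00916). Acly, which makes cytosolic acetyl-CoA from citrate, and Acaca, the acetyl-CoA carboxylase that forms malonyl-CoA, were not called (log2 fold changes -0.15 ± 0.14 and -0.35 ± 0.18).

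Me1, the cytosolic malic enzyme that supplies NADPH for fatty acid synthesis, went the other way. It lay at 11.1, 14.4 and 33.0 CPM in control and at 109.8, 129.6 and 147 CPM in knockout mice at 7 days. Its lowest knockout value was above every control value of either day, and the log2 fold change was 2.86 ± 0.21 (7.26-fold, adjusted p = 4.47e-09). An antisense gene, A330041J22Rik, has exons that overlap those of Me1, and as no strand option is stated for the counting, reads of the pair cannot be told apart.

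The 3 elongases each behaved differently. Elovl5, which extends polyunsaturated fatty acids between the FADS2 and FADS1 steps, lay at 16.6, 18.6 and 20.7 CPM in control and at 33.2, 34.9 and 50.9 CPM in knockout mice at 7 days. Each knockout was above each control (log2 fold change 1.04 ± 0.12, adjusted p = 7.74e-07), opposite in direction to the 2 desaturases of its own route. Elovl6, which extends long-chain saturated fatty acids, was lower (log2 fold change -0.55 ± 0.15, adjusted p = 0.00825), and Elovl1, an elongase of very long chains, was not called (-0.02 ± 0.11). The call of Elovl6 was lost when all 26 libraries shared one fit (adjusted p = 0.102).

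**Figure D2:**
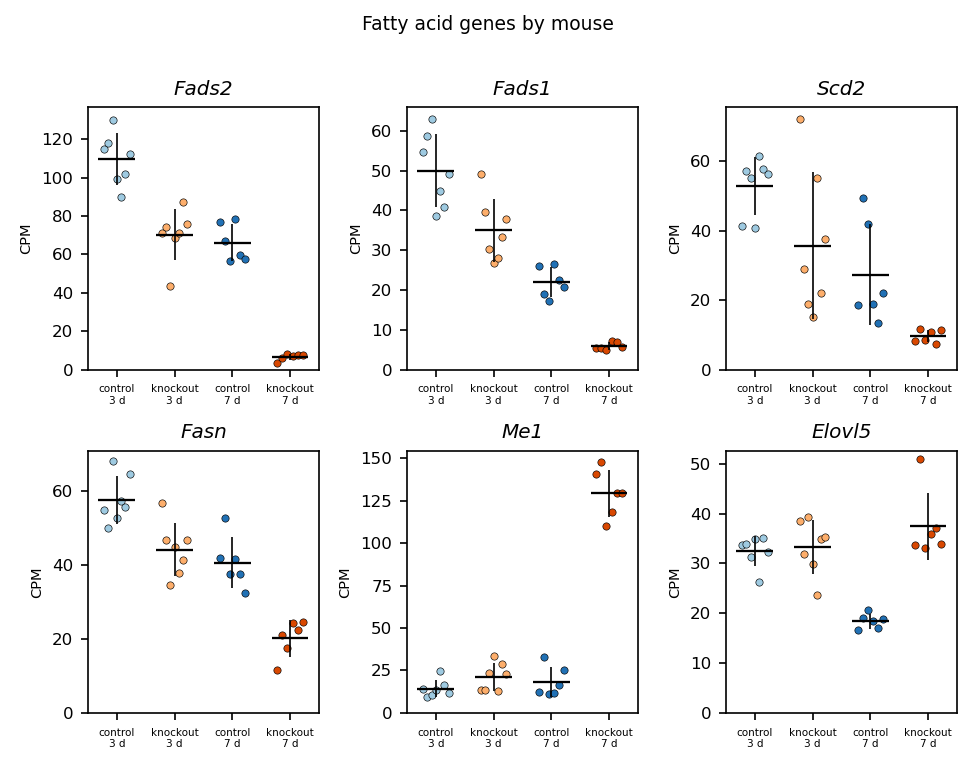
CPM of 6 fatty acid genes (y axis, linear from 0) in each mouse of the 4 groups (x axis), where each point is 1 mouse, the horizontal line is the mean and the vertical line ± 1 SD. Fads2 and Fads1 are lowest and Me1 highest in the 7-day knockouts, and Elovl5 is lowest in the 7-day controls, at 16.6 to 20.7 CPM.

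In the sterol branch the steps from acetyl-CoA to the isoprenoids leaned down, with 0 of 8 enzymes higher and 5 lower at 7 days (median log2 fold change -0.71). Acat2, the thiolase that joins acetyl-CoA units, lay at 23.4, 27.2 and 36.3 CPM in control and 9.67, 11.9 and 17.4 CPM in knockout mice. The groups were apart (log2 fold change -1.11 ± 0.15, adjusted p = 6.51e-06). Mvd, which decarboxylates the mevalonate diphosphate, lay at 7.45, 11.9 and 18.5 CPM in control and 3.15, 7.24 and 9.86 CPM in knockout mice, with overlap (log2 fold change -0.77 ± 0.24, adjusted p = 0.0166). Pmvk, the phosphomevalonate kinase, lay at 8.99, 11.7 and 15.2 CPM against 5.55, 6.86 and 8.46 CPM, without overlap (-0.73 ± 0.17, adjusted p = 0.00265). Mvk, the mevalonate kinase, was also lower (-0.70 ± 0.18, adjusted p = 0.00376).

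Hmgcs1, the synthase at the entry of the pathway, was not called, at 168, 179.9 and 244 CPM in control and 146, 207 and 252 CPM in knockout mice (log2 fold change 0.14, 95% interval -0.11 to 0.38). Fdps, the farnesyl diphosphate synthase, passed the threshold (log2 fold change -0.59 ± 0.20, adjusted p = 0.0273), but not without wt.7d mouse 2, a library with stomach transcripts that held its highest value, 21.6 CPM (log2 fold change -0.45, adjusted p = 0.0658). Leaving out tg.7d mouse 1, 2 or 4 also ended the call, with adjusted p of at least 0.0567. Ggps1, which makes geranylgeranyl diphosphate, was not called, and Idi1, the isomerase between, had a mean of 1.92 counts and could not be judged at this depth.

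From squalene onwards the enzymes pointed both ways, with 2 of 11 higher, 3 lower and 6 not called (median log2 fold change -0.08). Dhcr7, which carries out the closing reduction to cholesterol, lay at 16.3, 18.3 and 21.4 CPM in control and at 2.65, 4.46 and 5.25 CPM in knockout mice. No values overlapped, and the log2 fold change of -2.13 ± 0.15 (4.38-fold, adjusted p = 3.35e-09) was the largest fall of the branch. Ebp, the sterol isomerase, lay at 146, 197 and 200.3 CPM in control and at 62.9, 74.3 and 81.8 CPM in knockout mice, also without overlap (-1.31 ± 0.11, adjusted p = 1.53e-08). Sc5d, the desaturase between these steps, fell by 0.41 on the log2 scale (SE 0.09, adjusted p = 0.00175). The late steps after the demethylations were thus the ones with lower transcripts.

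The middle of the route was higher or not called. Lss, which closes the ring to lanosterol, lay at 6.16, 8.71 and 9.75 CPM in control and at 10.7, 14.7 and 18.2 CPM in knockout mice at 7 days, without overlap (log2 fold change 0.80 ± 0.15, adjusted p = 0.000369). Hsd17b7, the ketoreductase of the demethylation cycle, lay at 37.6, 41.5 and 45.3 CPM against 55.2, 67.3 and 70.0 CPM, also without overlap (0.69 ± 0.09, adjusted p = 7.63e-06). Sqle, the squalene epoxidase, had a log2 fold change of 0.48 ± 0.22 and was not called (adjusted p = 0.0958). It passed without tg.7d mouse 1 or without wt.7d mouse 3, whose 40.0 CPM was the highest of its group. With replicate number as a block Sqle passed too (adjusted p = 0.00657). Cyp51, the lanosterol demethylase, had a log2 fold change of 0.34 (adjusted p = 0.141), and 0.44 (adjusted p = 0.0395) without wt.7d mouse 2. With the block it was 0.33 (adjusted p = 0.0382). The intervals of 12 of the 13 genes that were not called, all but Idi1, lay within a 2-fold change.

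**Figure D3:**
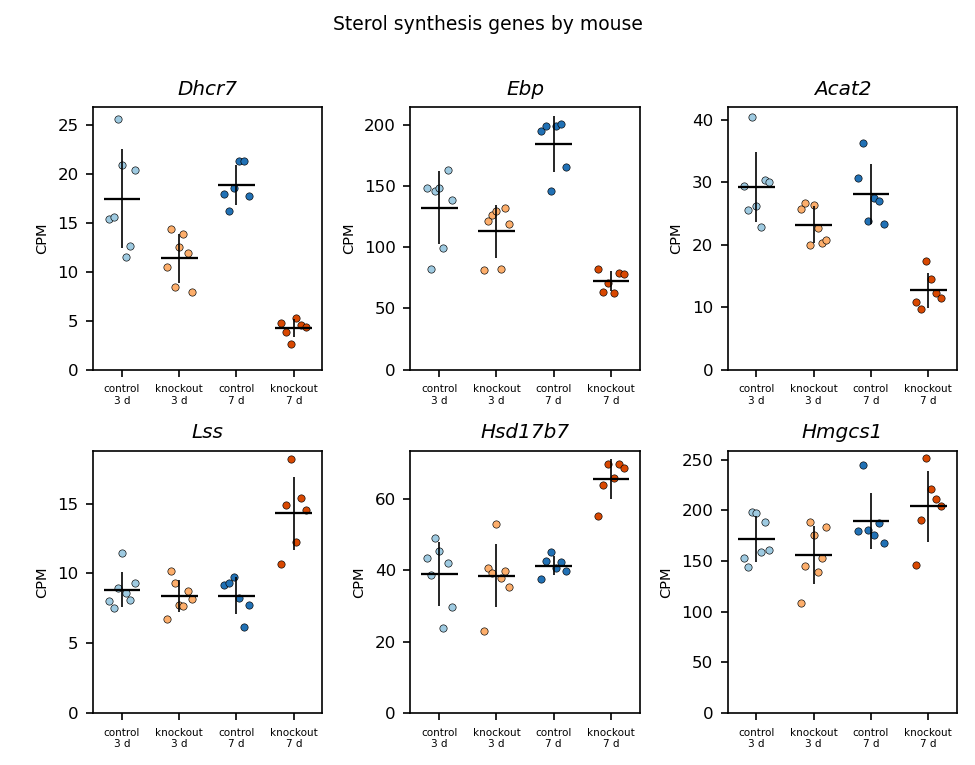
CPM of 6 sterol synthesis genes (y axis, linear from 0) in each mouse of the 4 groups (x axis), with points for mice, horizontal lines for means and vertical lines for ± 1 SD. In the 7-day knockouts Dhcr7, Ebp and Acat2 are below and Lss and Hsd17b7 above all 7-day controls, whereas Hmgcs1 overlaps.

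Ratios of 2 genes within a library do not depend on the scaling of the libraries, and are given as a description. The ratio of Fads2 to Elovl5 counts had a median of 3.52 (2.74 to 4.62) in the 7-day controls and of 0.205 (0.109 to 0.246) in the 7-day knockouts, with 3.42 in the 3-day controls and 2.30 in the 3-day knockouts. The ratio of Dhcr7 to Lss went from 2.13 in the 7-day controls to 0.298 in the knockouts, and that of Ebp to Hsd17b7 from 4.70 to 1.07. The ratio of Me1 to Fasn went from 0.368 to 6.02. In all 4 ratios the 7-day knockouts lay apart from the 3 other groups.

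Promoters are shown because members of one route moved in opposite directions. RefSeq promoter sequences (GRCm38.p6, 250 bases before to 50 after the start) were at hand for 34 of the 42 genes, and were searched on both strands for the CCAAT box of NF-Y and the GGGCGG box of Sp1, the usual partners of SREBPs, for the sterol regulatory element as TCACNCCAC and for TGATGNAA, the core of ATF4 composite sites. A CCAAT box was present for 28 of the 34 genes (82.4%) and for 41.1% of all 27025 genes with a promoter. It was present for 5 of 6 members that were higher at 7 days, 13 of 17 that were lower and 10 of 11 that were not called. GGGCGG was present for 73.5% of the members and 38.2% of all genes, TGATGNAA for 8.82% and 4.51%, and TCACNCCAC in Hmgcs1 alone (2.94% and 1.44%). These matches are letters in a fixed window and not sites of binding. The 3 members with the strongest fall and the 3 with the strongest rise were taken among those with a single promoter entry. Fall and rise here mean knockout against control at 7 days, not a change between days. The promoters are printed 5′ to 3′ in the direction of the gene, with CCAAT boxes of either strand in capitals. Those that fell are Fads2 (chr19:10101454-10101753, minus strand), Npc1l1 (chr11:6230196-6230495, minus strand) and Ebp (chrX:8193463-8193762, minus strand), and those that rose are Elovl5 (chr9:77917115-77917414, plus strand), Lss (chr10:76531355-76531654, plus strand) and Hsd17b7 (chr1:169969156-169969455, minus strand).
Fads2: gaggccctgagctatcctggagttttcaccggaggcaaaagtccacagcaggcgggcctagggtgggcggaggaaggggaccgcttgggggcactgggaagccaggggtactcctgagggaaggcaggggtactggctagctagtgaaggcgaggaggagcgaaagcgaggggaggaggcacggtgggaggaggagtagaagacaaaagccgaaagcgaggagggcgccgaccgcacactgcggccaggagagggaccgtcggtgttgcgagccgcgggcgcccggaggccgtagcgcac
Npc1l1: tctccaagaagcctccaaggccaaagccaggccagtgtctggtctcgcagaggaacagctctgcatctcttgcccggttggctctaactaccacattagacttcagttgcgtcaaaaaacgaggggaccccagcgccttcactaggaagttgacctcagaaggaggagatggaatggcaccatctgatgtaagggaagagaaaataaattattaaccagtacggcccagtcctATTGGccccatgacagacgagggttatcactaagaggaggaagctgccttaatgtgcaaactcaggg
Ebp: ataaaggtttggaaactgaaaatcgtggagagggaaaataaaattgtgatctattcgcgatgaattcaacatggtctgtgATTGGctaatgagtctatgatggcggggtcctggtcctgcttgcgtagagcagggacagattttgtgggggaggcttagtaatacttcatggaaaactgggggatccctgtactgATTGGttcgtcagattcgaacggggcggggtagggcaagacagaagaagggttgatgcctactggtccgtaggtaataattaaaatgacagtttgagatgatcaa
Elovl5: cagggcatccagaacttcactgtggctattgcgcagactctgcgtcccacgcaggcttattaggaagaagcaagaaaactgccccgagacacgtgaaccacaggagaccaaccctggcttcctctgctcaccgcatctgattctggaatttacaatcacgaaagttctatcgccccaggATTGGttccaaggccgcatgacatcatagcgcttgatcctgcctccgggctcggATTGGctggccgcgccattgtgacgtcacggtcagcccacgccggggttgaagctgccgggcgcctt
Lss: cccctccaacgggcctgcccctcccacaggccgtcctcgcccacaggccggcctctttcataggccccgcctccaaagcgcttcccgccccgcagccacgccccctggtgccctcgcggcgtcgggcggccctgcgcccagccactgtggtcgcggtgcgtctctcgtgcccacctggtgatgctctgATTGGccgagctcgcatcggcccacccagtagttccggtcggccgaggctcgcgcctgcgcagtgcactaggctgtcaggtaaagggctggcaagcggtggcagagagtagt
Hsd17b7: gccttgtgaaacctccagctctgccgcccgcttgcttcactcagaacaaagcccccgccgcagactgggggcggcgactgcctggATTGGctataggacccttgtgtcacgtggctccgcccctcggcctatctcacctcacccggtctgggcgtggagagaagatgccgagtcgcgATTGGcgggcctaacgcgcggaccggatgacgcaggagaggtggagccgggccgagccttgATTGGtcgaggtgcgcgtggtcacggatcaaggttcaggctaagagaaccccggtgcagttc
Fads2, which fell most, has no CCAAT box in this window, whereas Ebp has 2 and Npc1l1 1. Of the genes that rose, Hsd17b7 has 3, Elovl5 2 and Lss 1, so the number of boxes overlapped between both directions.

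Of the SREBP regulators 2 were higher, 2 lower and 1 not called at 7 days. Insig1, the retention protein that is itself a sterol-responsive gene, lay at 6.16, 8.16 and 14.5 CPM in control and at 0.876, 3.58 and 7.39 CPM in knockout mice. The groups overlapped slightly (log2 fold change -1.14 ± 0.32, adjusted p = 0.00866). Srebf1, which encodes the SREBP of fatty acid synthesis, lay at 15.4, 19.2 and 35.4 CPM against 13.2, 13.5 and 19.1 CPM (-0.61 ± 0.19, adjusted p = 0.0172). Srebf2, which encodes the SREBP of sterol synthesis, was level, at 58.2, 62.9 and 94.7 CPM against 50.6, 64.7 and 79.3 CPM (log2 fold change 0.00, 95% interval -0.24 to 0.25).

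Scap and Insig2 were higher. Scap, the escort protein, lay at 41.6, 52.6 and 54.3 CPM in control and at 58.5, 68.0 and 72.2 CPM in knockout mice, without overlap (log2 fold change 0.47 ± 0.09, adjusted p = 0.000418). Insig2, the less sterol-responsive INSIG, lay at 26.6, 28.9 and 35.5 CPM against 32.1, 35.5 and 41.4 CPM (0.27 ± 0.10, adjusted p = 0.0348). Its call was the least secure of the 29. It was lost under 7 of the 10 alternatives other than leaving out single mice, and when any of tg.7d mice 3, 4 and 6 or wt.7d mice 1, 4 and 5 was left out (log2 fold changes 0.19 to 0.26, adjusted p from 0.0673 to 0.161).

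All 6 genes of sterol transport and esterification were lower in knockout mice at 7 days. Npc1l1, the uptake protein for cholesterol at the brush border, lay at 65.4, 107 and 197 CPM in control and at 23.6, 29.7 and 35.2 CPM in knockout mice. Even the lowest control exceeded the highest knockout (log2 fold change -1.95 ± 0.25, adjusted p = 4.12e-06). Stard4, a cytosolic sterol carrier, lay at 129, 151 and 184 CPM against 37.8, 52.2 and 60.3 CPM, without overlap (-1.54 ± 0.13, adjusted p = 2.18e-08).

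The remaining 4 fell by less and their groups overlapped. Abcg5 and Abcg8, the partners of the sterol efflux pump, lay at 61.7, 99.5 and 112 CPM against 49.3, 57.9 and 87.4 CPM, and at 47.6, 83.9 and 104 CPM against 35.7, 45.8 and 89.7 CPM (log2 fold changes -0.57 ± 0.18 and -0.67 ± 0.22, adjusted p = 0.0174 and 0.0200). They are neighbours on opposite strands of chromosome 17 with overlapping exons, so reads in the overlap cannot be assigned to either. Abca1, the basolateral cholesterol exporter, lay at 13.0, 24.7 and 36.1 CPM against 8.34, 15.0 and 23.5 CPM (-0.71 ± 0.26, adjusted p = 0.0354). Soat2, which esterifies cholesterol in enterocytes, lay at 16.4, 21.8 and 36.8 CPM against 13.9, 16.8 and 18.4 CPM (-0.50 ± 0.19, adjusted p = 0.0475).

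The calls of Abca1 and Soat2 depended on single mice, and that of Abca1 was lost with replicate number as a block (adjusted p = 0.0626). Abca1 lost its call without any of tg.7d mice 3, 4 and 6 or wt.7d mice 3, 5 and 6 (log2 fold changes -0.55 to -0.70), and Soat2 without any of tg.7d mice 2, 4, 5 and 6 or wt.7d mice 3, 5 and 6, the smallest effect being -0.30 without wt.7d mouse 3. When all 26 libraries shared one fit, Abcg5 (adjusted p = 0.199), Abcg8 (0.083) and Soat2 (0.236) were not called. Absorptive enterocyte markers moved with the transport genes. At 3 days the summed level of these markers ran from 561 to 7238 CPM in knockouts and from 747 to 7218 CPM in controls. At 7 days 9 of the 10 markers were lower in knockouts, all but Ada, and their summed level ran from 3113 to 5479 CPM against 9873 to 14322 CPM in controls, with no defining marker at 0. Their part in the result was not tested. The 10 proliferation markers were lower too, at a summed 182 to 288 CPM against 671 to 850.4 CPM.

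**Figure D4:**
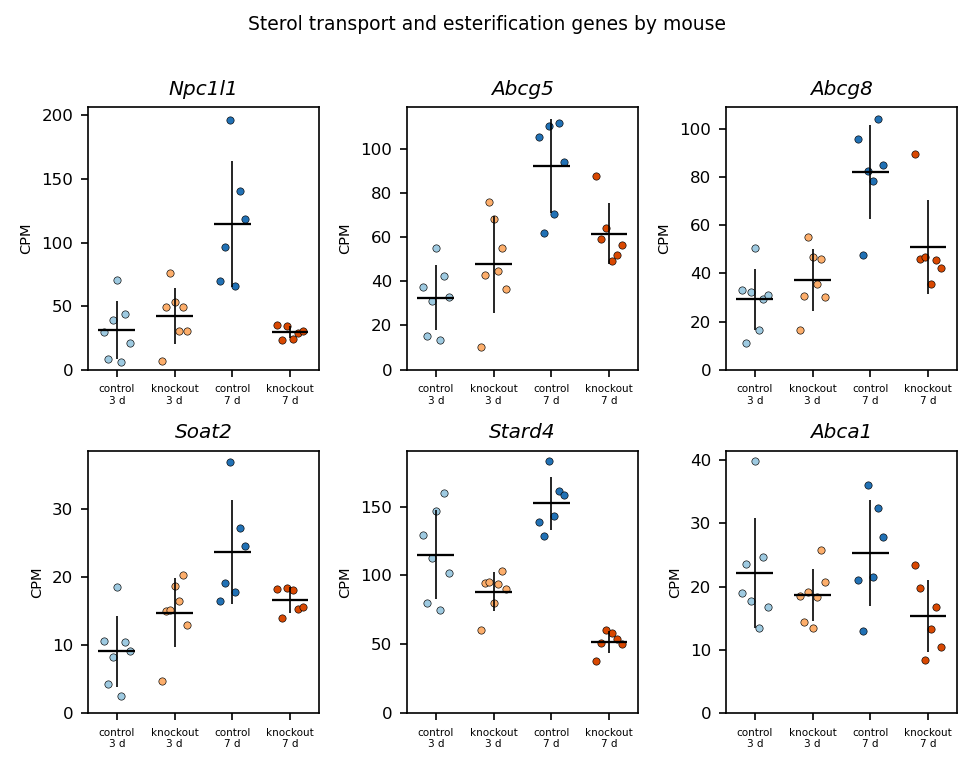
CPM of the 6 sterol transport and esterification genes (y axis, linear from 0) in each mouse of the 4 groups (x axis), with points for mice, horizontal lines for means and vertical lines for ± 1 SD. Values of Npc1l1 spread from 5.64 to 75.9 CPM at 3 days and separate at 7 days, from 23.6 to 35.2 CPM in knockout and from 65.4 to 197 CPM in control mice.

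At 3 days no gene of the 42 passed the threshold in the edgeR test, where 1.43% of 20760 genes were called (1.11% higher and 0.323% lower). The DESeq2 Wald test called 2 of the 42, Fads2 and Acss2, both lower, beside 536 genes higher and 250 lower among all genes tested. Fads2 came nearest, at 90.0, 113 and 130.3 CPM in control and 43.5, 71.1 and 87.3 CPM in knockout mice. It was the only member whose groups did not overlap (0.848% of genes tested did not), with a log2 fold change of -0.53 ± 0.14 and an adjusted p of 0.0669. It passed under DESeq2 (adjusted p = 0.00698), with the filterByExpr filter (0.0453), with all 26 libraries in one fit (0.0249) and with library totals in place of TMM (0.0230). Fads1 lay at 38.5, 49.1 and 62.9 CPM in control and 26.7, 33.2 and 49.2 CPM in knockout mice, with overlap (log2 fold change -0.41 ± 0.15, adjusted p = 0.215). Me1 lay at 9.11, 13.7 and 24.5 CPM against 13.1, 23.2 and 33.4 CPM (0.68 ± 0.26, adjusted p = 0.235). The median log2 fold change was 0.01 for the sterol branch, -0.24 for the fatty acid branch and -0.51 for the 4 desaturases, which were all negative without a call. Of the 42 intervals 34 lay within a 2-fold change, and the 8 others reached beyond it.

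The genotype effect differed between the days for 16 genes, 4 more positive and 12 more negative at 7 days, beside 18.4% of the 19604 genes tested (8.64% more positive and 9.74% more negative) and 25.2% of those with 20 or more counts on average. Fads2 differed most (difference of the log2 fold changes -2.71 ± 0.20, adjusted p = 3.74e-10), followed by Me1 (2.19 ± 0.36, adjusted p = 5.91e-05 and positive) and Fads1 (-1.44 ± 0.21, adjusted p = 8.66e-06) in the fatty acid branch. Dhcr7 (-1.62 ± 0.27), Ebp (-1.18 ± 0.21) and Acat2 (-0.87 ± 0.21) led the sterol branch, with Lss the opposite (0.78 ± 0.21). Npc1l1 had a difference of -2.50 ± 0.61 (adjusted p = 0.00365). The differences of Mvk, Fdps, Scap, Abcg8, Soat2 and Fasn each lost the call under at least 1 alternative, and that of Abcg8 without any of 21 of the 26 mice. Without the libraries with stomach transcripts the difference was -0.56 for Fdps (adjusted p = 0.136) and 0.36 for Scap (adjusted p = 0.0537). The other members called at 7 days had differences that were not called. These were Pmvk, Mvd, Hsd17b7, Sc5d, Insig1, Insig2, Srebf1, Abcg5, Abca1, Acss2, Elovl6, Scd1 and Scd2. Abcg5 (adjusted p = 0.0523) and Hsd17b7 (adjusted p = 0.0547) came nearest to the threshold.

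The days were also compared within a genotype, where day and any batch that goes with it cannot be told apart. In control mice 16 of the 42 genes were higher and 4 lower at 7 than at 3 days (47.6% called, beside 36.0% of all genes tested, 19.7% higher and 16.3% lower). Of all genes with 20 or more counts on average 48.7% were called, so the share of members was near the background. Sterol synthesis held 8 of 19 genes higher and none lower (median log2 fold change 0.39), led by Msmo1 (0.97 ± 0.17), Sc5d (0.89 ± 0.14) and Ebp (0.84 ± 0.15), and 5 of the 6 transport genes were higher, from Stard4 (0.78 ± 0.17) to Npc1l1 (2.27 ± 0.44). The fatty acid branch split, with Elovl6 and Elovl1 higher and Fads1 (-0.82 ± 0.14), Fads2 (-0.37 ± 0.10), Scd1 (-1.80 ± 0.45) and Elovl5 (-0.45 ± 0.10) lower. These splits depended on the scaling, since TMM moved the 7-day controls against the 3-day controls by 0.32 on the log2 scale. With library totals in place of TMM, 8 genes were higher and 11 lower and the sterol median was 0.02. Hsd17b7 (0.46 ± 0.14) was not called without the libraries with stomach transcripts (0.29, adjusted p = 0.0615). All 10 absorptive enterocyte markers were higher and all 8 smooth muscle and 8 stroma markers lower at 7 days in controls. Of the 6 adipocyte markers tested 5 were lower and 1 higher (median log2 fold change -2.07). Their part in these values was not tested.

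In knockout mice 9 of the 42 genes were higher and 13 lower at 7 than at 3 days (52.4%, beside 36.9% of all genes tested, 16.7% higher and 20.2% lower). Of all genes with 20 or more counts on average 48.1% were called, close to the share of members. All 4 desaturases were lower, by 3.20 ± 0.19 for Fads2, 2.37 ± 0.16 for Fads1, 1.67 ± 0.31 for Scd2 and 1.87 ± 0.52 for Scd1 on the log2 scale, and Fasn fell by 0.94 ± 0.16. Me1 was 2.79 ± 0.21 higher. In the sterol branch 6 enzymes were higher, Lss (0.96 ± 0.16) and Hsd17b7 (0.94 ± 0.16) among them, and 5 lower, led among those above the floor of 3 counts by Dhcr7 (-1.25 ± 0.22) and Acat2 (-0.69 ± 0.17). Of the transport genes Stard4 was lower (-0.59 ± 0.14) and the 5 others were not called. The number of lower genes was 8 without tg.7d mouse 2, 4, 5 or 6. With library totals in place of TMM 5 genes were higher and the sterol median moved from 0.01 to -0.19. Sqle was higher (0.50 ± 0.19, adjusted p = 0.046) and Acaca lower (-0.53 ± 0.20, adjusted p = 0.0457). Without the libraries with stomach transcripts Sqle (0.44, adjusted p = 0.0737) and Acaca (-0.46, adjusted p = 0.0885) were not called. All 8 smooth muscle markers were lower at 7 days in knockouts too.

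The mean log2 CPM of a branch per mouse summarises these patterns, as a description. The sterol branch stood at 4.35 ± 0.13 (SD, n = 7) in the 3-day controls, 4.32 ± 0.15 (n = 7) in the 3-day knockouts, 4.71 ± 0.16 (n = 6) in the 7-day controls and 4.37 ± 0.16 (n = 6) in the 7-day knockouts. Its knockout and control ranges overlapped at both days. The fatty acid branch stood at 5.13 ± 0.09, 4.92 ± 0.14, 4.88 ± 0.11 and 4.42 ± 0.14 in the same order, and its 7-day knockouts, at 4.17 to 4.52, were below the range of every other group. For the desaturases alone the means were 5.50, 4.87, 4.62 and 2.83. For the synthesis genes, Me1 among them, they were 4.51, 4.44, 4.45 and 4.67. For the elongases they were 5.69, 5.79, 5.95 and 6.11. Only the desaturase mean was lowest in the 7-day knockouts. The other subgroup means joined opposite genotype effects at 7 days. Among synthesis genes Me1 was higher (log2 fold change 2.86) and Fasn (-0.98) and Acss2 (-0.48) lower. Among elongases Elovl5 was higher (1.04) and Elovl6 lower (-0.55). The 7-day knockouts sat near both 3-day groups in the sterol branch. In the fatty acid branch they sat below them, and by subgroup mean only for the desaturases. Within the synthesis genes Fasn (log2 fold change -0.94), Acly (-0.44) and Acaca (-0.53) were nevertheless lower in the 7-day than in the 3-day knockouts, and Me1 (2.79) was higher.

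**Figure D5:**
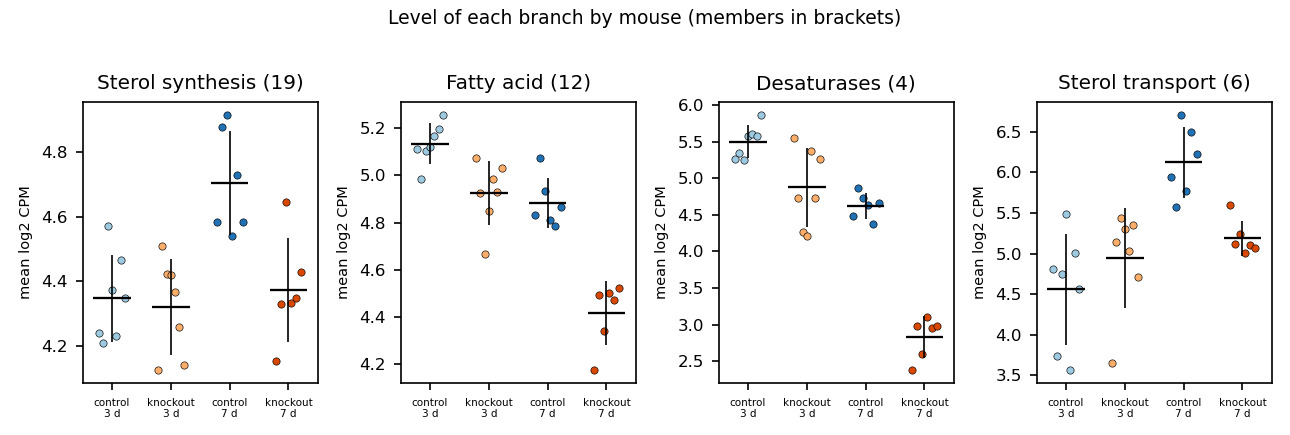
Mean log2 CPM (y axis, TMM-scaled, axis not starting at 0) of the sterol branch, the fatty acid branch, the 4 desaturases and the 6 transport genes in each mouse of the 4 groups (x axis), with means as horizontal and ± 1 SD as vertical lines. The sterol panel is highest in the 7-day controls (4.71) and the desaturase panel lowest in the 7-day knockouts (2.83).

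A wider list of 65 pathway genes gave 59 that could be tested, of which 15 were higher and 16 lower in knockouts at 7 days (median log2 fold change 0.02). The 52.5% called was near the 52.9% of all genes with 20 or more counts on average. Among listed genes that deep the strongest rises were those of Acsl4, Mid1ip1, Acsl3 and Stard5. Acsl4, an acyl-CoA synthetase for arachidonate, lay at 8.67, 10.4 and 18.0 CPM in control and 74.7, 90.0 and 113 CPM in knockout mice (log2 fold change 2.98 ± 0.16). Acsl3, an acyl-CoA synthetase of lipid droplets, lay at 46.4, 51.7 and 74.1 CPM against 194, 244 and 348 CPM (2.16 ± 0.17). Both were well apart between the genotypes. Mid1ip1, a partner of acetyl-CoA carboxylase, and Stard5, a sterol carrier, also rose (2.29 ± 0.12 and 1.83 ± 0.15). Stard5 was the only one of the 59 called at 3 days (1.69%, beside 1.43% of all genes tested), with a median of 37.7 and a highest value of 42.7 CPM in control mice against 42.2, 50.6 and 59.2 CPM in knockout mice (log2 fold change 0.54 ± 0.11, adjusted p = 0.0147).

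The strongest falls of the wider list came from another acyl-CoA synthetase, Acsl1 (-1.36 ± 0.14), and from 3 genes of sterol biology: Rnf145, a sterol-responsive ubiquitin ligase (-1.26 ± 0.12), Lbr, a sterol reductase of the nuclear envelope (-1.17 ± 0.12), and Nr1h3, the oxysterol receptor LXR alpha (-1.09 ± 0.16). Acsl1 lay at 52.3, 79.2 and 87.8 CPM in control and 23.3, 27.3 and 32.5 CPM in knockout mice at 7 days, without overlap. The acyl-CoA synthetases thus diverged, with Acsl3 and Acsl4 higher and Acsl1 and Acsl5 lower.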

How the data were processed

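RNA of proximal SI tissue from 26 mice was sequenced with QuantSeq 3′ FWD libraries, which count transcript ends. The authors trimmed reads with cutadapt 2.10, aligned them with Subread to GRCm38 (Ensembl annotation with spike-in sequences) and counted exonic reads with featureCounts 2.0.1. Multi-mapping and overlapping reads were counted as fractions, so the deposited values are estimated counts, 95% of them whole, and no strand option is stated. The deposited CPM is each count scaled to a common library total, and was recomputed from the counts. The study's methods exclude samples on RNA quality, and the 92 spike-in entries held no counts.

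The design assumed whole counts, so the estimated counts were rounded before testing. Genes with zero counts in more than a share of 0.5 of the samples of either group were left out, as in the study. Genotypes were compared at each day, the days within each genotype, and the difference of the genotype effects between days, with edgeR 4.0.16 (TMM, quasi-likelihood test, Benjamini-Hochberg adjustment over all genes tested, threshold 0.05) in R 4.3.3. These comparisons share mice. Standard errors were derived from the log2 fold change and its F statistic, and 95% intervals were 1.96 standard errors to either side. Branch levels are means of log2 CPM with a prior count of 2. A floor of 3 counts per library covers counting error only. Nothing in the labels says how mice relate beyond their group, so p-values measure the spread between these samples. DESeq2 1.42.0, other scalings and filters, leaving out each mouse and a replicate block were alternatives; leaving out stomach-rich libraries, covariates and library totals without TMM were chosen after seeing the data. The fit was tested on simulated counts, in which far fewer genes were changed than were called at 7 days. Of genes changed 2-fold, 72.9% were recovered at 7 days, 66% at 3 days and 41.4% for the difference between days.

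The targeted gene is not reported here. Members, lists and tests were chosen with earlier results of these data known. Genes given in full were the 6 largest called changes at 7 days in each synthesis branch with a mean of at least 20 counts, every called SREBP regulator and transport gene, and the 4 largest called rises and falls of the wider list, with the same count minimum. Further members are named for their role in the route after their values were seen. Exon overlaps came from GENCODE M21. Reads in exons shared by 2 genes are uncertain for 17 of the 42 members, Lss, Me1, Scd2, Scap, Abcg5 and Abcg8 among them.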

Additional observations from a re-analysis of the deposited data

Results flagged for a closer look

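In 22 of 168 groups (42 genes in 4 groups) 1 mouse stood apart from the rest by Dixon's criterion, where chance gives about 1 in 20, or 8.4. Of these, 5 fell on wt.3d mouse 5 and 3 on wt.7d mouse 2, both libraries with stomach transcripts. In CPM, wt.3d mouse 5 was high for Fdft1 (18.3) and Acly (80.1) and low for Sc5d (46.8), Srebf2 (61.3) and Acss2 (19.4). The values of wt.7d mouse 2 were high for Hmgcs1 (244, next 187), Fdps (21.6, next 13.8) and Srebf2 (94.7, next 65.0). Other 3-day controls stood high for Pmvk (16.4, mouse 6), Idi1 (3.45, mouse 7), Fdps (16.0, mouse 3), Acat2 (40.4, mouse 3) and Abca1 (39.9, mouse 4), and wt.7d mouse 3 for Sqle (40.0, next 24.6). Among 3-day knockouts mouse 1 was low for Sc5d (51.5) and high for Insig1 (10.9), mouse 6 high for Srebf1 (25.9) and mouse 3 low for Fads2 (43.5, next 68.8). Among 7-day knockouts mouse 2 was high for Idi1 (0.634) and Elovl5 (50.9, next 37.0), mouse 3 for Srebf1 (19.1) and mouse 1 for Abcg8 (89.7, next 46.6).

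The test of the difference between the 7-day and the 3-day genotype effect passed for 16 members. On the log2 scale the difference was negative for Mvk (-0.78), Fdps (-0.75), Acat2 (-0.87), Ebp (-1.18), Dhcr7 (-1.62), Stard4 (-1.26), Npc1l1 (-2.50), Abcg8 (-1.12), Soat2 (-1.30), Fasn (-0.68), Fads1 (-1.44) and Fads2 (-2.71). It was positive for Lss (0.78), Scap (0.38), Me1 (2.19) and Elovl5 (0.92).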

How the results depend on the processing

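At 7 days the branch medians kept their sign in 22 of 22 alternatives, from -0.42 to -0.21 for sterol synthesis and from -0.57 to -0.47 for the fatty acid branch. The sterol median at 3 days kept its sign in 18 of 24. At 3 days 297 genes passed the threshold, against 786 with DESeq2, 810 with all 26 libraries in one fit, 99 with the replicate block, 486 without the libraries with stomach transcripts, and 171 to 779 without single mice (779 without tg.3d mouse 1). Members lower at 3 days numbered 0, against 2 with DESeq2 and 1 each with filterByExpr, with all 26 libraries and with library totals without TMM. Members higher numbered 0 to 1 without single mice (Cyp51 without tg.3d mouse 1). Between days, library totals without TMM gave 8 members higher and 11 lower in controls (medians 0.025 for sterol and -0.65 for fatty acid) and 5 higher in knockouts (medians -0.19 and -0.70). Members lower in knockouts between days numbered 13, against 8 with the replicate block and 8 to 12 without single mice. Replicate numbers are shared between groups, and the labels do not say whether a number marks a litter or a batch. Same-numbered mice deviated together (r over 0.1) in 2 of 7 pairs at 3 days and 2 of 6 at 7 days. Such correlations cannot settle whether the numbers pair the mice. With the block, 28 of the 29 member calls at 7 days remained, Abca1 was lost (adjusted p = 0.0626), and Sqle (0.47, adjusted p = 0.00657) and Cyp51 (0.33, adjusted p = 0.0382) were added. With pancreatic and stomach levels as covariates, 26 of the 29 remained. Fdps (-0.39, adjusted p = 0.132), Scd1 (-0.60, adjusted p = 0.143) and Insig2 (0.29, adjusted p = 0.0501) were lost. Cyp51 (0.45, adjusted p = 0.0385) was added. For single genes, values were followed for all 42 members in the genotype comparisons at 3 and 7 days and for called members otherwise. Of these 3168 kept their side of the threshold, 209 lost the call, 14 gained it and none reversed. Members not called in the other comparisons could gain a call too, 7 of them between days in controls with library totals without TMM. The causes were not tested. Depth limited Idi1, near the floor of 3 counts.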
